A study of Mus musculus with 8 samples.

Results

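The metal transporter genes described here move zinc, iron, copper and magnesium across cell membranes, together with the metallothioneins that bind zinc and copper in the cytosol. They were taken by symbol from a table of 19884 genes: every Slc30a, Slc39a, Slc41a, Slc11a and Slc31a gene, and Slc40a1, Tfrc, Atp7a, Atp7b, Mt1 and Mt2. The rule gave 37 genes, of which 10 were Slc30a, 14 Slc39a, 3 Slc41a, 2 Slc11a and 2 Slc31a genes. RNA had been sequenced from whole brain and whole uterus of wild-type C57BL/6J females aged 6 to 10 weeks and mated with fertile males, on day 4 of pregnancy, where the plug marks day 1. Each organ had 4 libraries, 1 per mouse, and blastocysts in the uterine flush had marked the females as pregnant. No other day, no state without pregnancy and no sorted cells were measured, so each value is an average over all cell types of an organ, in which fewer cells of a type and less RNA per cell cannot be told apart.

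Zinc transporters fall into a pair of families that work against each other. SLC30 proteins (ZnT) carry zinc out of the cytosol, to the outside or into vesicles and organelles, and SLC39 proteins (ZIP) carry it into the cytosol. Cells take up iron bound to transferrin through the transferrin receptor, move it out of endosomes through SLC11A2 and release it through ferroportin, the product of Slc40a1. Copper enters through SLC31A1 and is pumped into the secretory pathway by the ATPases ATP7A and ATP7B, while SLC41 proteins carry magnesium. In the brain zinc is stored in the synaptic vesicles of many glutamatergic neurons, and the uterus is made of epithelium, glands, stroma and smooth muscle around its vessels.

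Library totals ran from 35394603 to 47790178 counts, and values of single libraries are given as CPM (counts scaled to a common library size, with TMM factors), in the order of libraries 1 to 4. The neuron markers summed to 6329 to 6538 CPM in brain and 8.23 to 11.8 CPM in uterus, and the markers of uterine stroma to 7808 to 9848 CPM in uterus and 82.1 to 86.9 CPM in brain, as the organ labels say. Of the 37 members, 36 passed the filter on low counts, and Slc30a8 did not. Between the organs 31 of the 36 differed by the edgeR quasi-likelihood test at an adjusted p of 0.05, 16 higher in uterus and 15 in brain. This is a share of 86.1%, beside a background of 87.0% of all 16074 genes tested, of which 43.5% were higher in uterus and 43.6% in brain. Against a 2-fold change 18 members passed (50%, background 49.3%), 8 toward uterus and 10 toward brain (23.5% and 25.8% of all genes). The members as a set therefore differed between the organs about as often as other genes, and their median log2 fold change of uterus over brain was 0.12 beside 0.012 for all genes. In 31 members all 4 libraries of 1 organ lay above all 4 of the other, beside 84.1% of all genes tested. With library size as the only scaling, the median of all genes was 0.27 and all calls split into 8179 toward uterus and 5949 toward brain, which left every one of the 31 member calls in place.

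**Figure D1:**
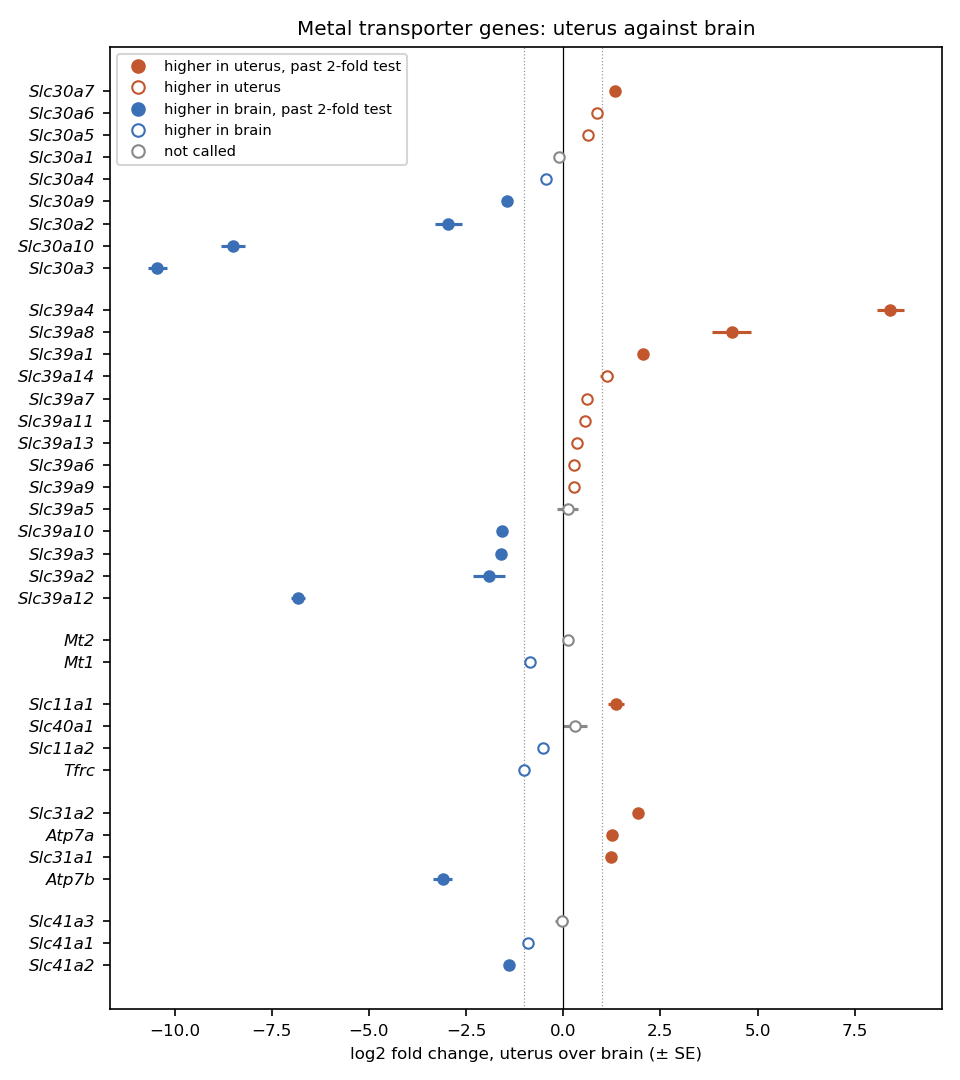
Log2 fold change of uterus over brain for the 36 tested members (points, bars show SE), grouped from top to bottom as zinc efflux genes, zinc uptake genes, metallothioneins, iron, copper and magnesium genes. Filled points passed the test against a 2-fold change, dotted lines mark 2-fold, and Slc30a3 at -10.45 and Slc39a4 at 8.42 stand at the ends.

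Among the zinc efflux genes, 3 were higher in uterus, 5 in brain and Slc30a1 was not called. The member furthest toward brain was Slc30a3 (ENSMUSG00000029151, chromosome 5, 31086106 to 31108237), which encodes ZnT3, the carrier that loads zinc into synaptic vesicles. It stood at 54.1, 67.6, 69.5 and 63.7 CPM in brain and at 0.101, 0, 0.0507 and 0.0233 CPM in uterus. The uterine values rest on 7 counts in all, against 10636 in brain, a ratio of 1507 (exact Poisson 95% interval 731 to 3748, counting error only). The log2 fold change was -10.45 ± 0.25 (adjusted p = 6.9e-11), with a wider limma-voom 95% interval of -12.3 to -8.87. It was -11.19 without uterus library 1, which held 4 of the 7 counts. Slc30a10 (ENSMUSG00000026614, chromosome 1, 185454848 to 185468762), whose product exports manganese, stood at 21.7, 23.6, 21.9 and 25.4 CPM in brain and 0, 0.0470, 0.0507 and 0.140 CPM in uterus, with 10 counts there. Its log2 fold change was -8.50 ± 0.31 (adjusted p = 1.4e-09), with a wider limma-voom 95% interval of -10.16 to -7.46. It was -9.32 without uterus library 4, the library with 6 of the counts and also with the highest sum of neuron markers (11.8 CPM). For Slc30a3 this differed, since uterus library 1, with 4 of its 7 counts, had the lowest sum of neuron markers (8.23 CPM). The part of neuron transcripts in the uterine counts of either gene was not tested.

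Slc30a2, a vesicular zinc transporter gene best known from the mammary gland, was also a brain gene here, at a low level. It measured 4.86, 3.81, 4.64 and 4.02 CPM in brain and 0.680, 0.941, 0.304 and 0.280 CPM in uterus. No library overlapped, and the log2 fold change was -2.97 ± 0.35 (adjusted p = 1.6e-05). Slc30a9, which encodes a mitochondrial zinc exporter, was the efflux gene with the most counts in brain, at 216, 215, 213 and 222 CPM, and stood at 76.1, 75.6, 83.1 and 84.5 CPM in uterus. The organs lay far apart beside the narrow spread within each, and the log2 fold change was -1.44 ± 0.05 (adjusted p = 1.5e-09). Slc30a4, whose loss in the mouse gives zinc-poor milk, measured 107, 89.6, 98.2 and 96.9 CPM in brain and 73.5, 69.5, 75.5 and 68.6 CPM in uterus. It was called higher in brain (-0.45 ± 0.06, adjusted p = 5.5e-05) and did not pass the 2-fold test. With library-size scaling the difference shrank to -0.19 (adjusted p = 0.0225).

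The efflux genes higher in uterus were those of the early secretory pathway, Slc30a5, Slc30a6 and Slc30a7, whose products bring zinc to enzymes such as alkaline phosphatases in the Golgi. Slc30a7 passed the 2-fold test, at 26.1, 25.7, 24.5 and 29.6 CPM in brain and 62.6, 65.3, 65.7 and 71.8 CPM in uterus (1.32 ± 0.07, adjusted p = 3.2e-08). Processed pseudogenes on the other strand share 16.2% of its exon length, and how reads there were assigned is not given in the sources used here. Slc30a5 stood at 56.9, 56.4, 56.97 and 62.7 CPM in brain and 86.1, 95.4, 93.2 and 85.5 CPM in uterus, without overlap (0.63 ± 0.06, adjusted p = 2.1e-06). Slc30a6, the partner of Slc30a5 in a heterodimer, stood at 11.2 ± 1.42 CPM in brain and 20.6 ± 1.11 CPM in uterus (SD, n = 4), a log2 fold change of 0.87 ± 0.10. These genes therefore went against Slc30a3, Slc30a9 and Slc30a10 of the same family.

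Slc30a1 encodes the zinc exporter of the plasma membrane, and its levels overlapped between the organs. It measured 52.95, 47.97, 39.5 and 43.3 CPM in brain and 40.8, 42.8, 41.9 and 44.8 CPM in uterus, a log2 fold change of -0.11 ± 0.09 (adjusted p = 0.249) with a limma-voom 95% interval of -0.29 to 0.09. The sign turned to 0.15 with library-size scaling, where it was not called either. Slc30a8, the zinc transporter gene of insulin granules, had 0 counts in all 4 uterus libraries and 10 counts over the 4 brain libraries (0.0540, 0.0231, 0.0462 and 0.118 CPM). Set against 3 counts over the uterus libraries together, this is a ratio of 3.31. That ratio leaves out the counting error of the 10 brain counts, so it is not a lower limit.

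Levels of different genes were compared per length, as CPM per kilobase of annotated exon (RPKM). Summed over the family, Slc30a genes reached 85.8 ± 1.00 RPKM in brain and 52.8 ± 1.20 RPKM in uterus (SD, n = 4), and Slc39a genes 155 ± 1.25 and 255 ± 43.1 RPKM. No library overlapped between the organs in either sum. Of the Slc39a sum, Slc39a4 alone held 97.7 ± 32.5 RPKM in uterus and 0.284 ± 0.0977 RPKM in brain. The higher Slc39a sum in uterus therefore rests largely on this gene. In brain Slc30a3 made up 26.2 ± 2.62% of the efflux sum, Slc30a4 20.8 ± 1.69% and Slc30a9 20.4 ± 0.377%. In uterus Slc30a3 made up 0.0294 ± 0.0298%, while Slc30a4 and Slc30a5 led with 24.8 ± 1.19% and 23.4 ± 1.19%. With the length of the longest transcript in place of all exons Slc30a9 led in brain, at 30.8%, and Slc30a5 in uterus, at 30.1%, so the order of the leading genes depends on the gene models.

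**Figure D2:**
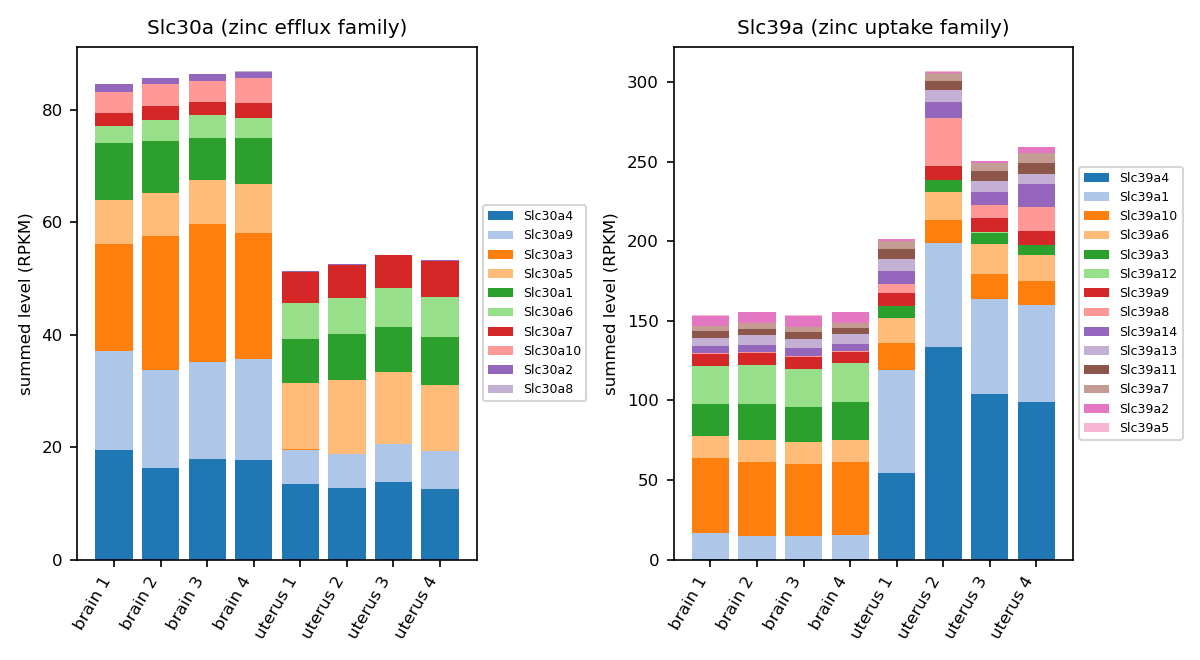
Summed RPKM of the Slc30a family (left) and the Slc39a family (right) in each of the 8 libraries, with the members stacked in the order of the legends from the foot. The uterus bars of Slc39a range from 202 to 307 RPKM with the segment of Slc39a4 at the foot, which is hardly visible in brain.

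Of the 14 zinc uptake genes, 9 were called higher in uterus and 4 in brain, beside 43.5% and 43.6% of all genes, and Slc39a5 was not called. Past 2-fold there were 3 toward uterus and 4 toward brain. Slc39a4 (ENSMUSG00000063354, chromosome 15, 76612383 to 76617384) encodes ZIP4, the zinc importer of the gut whose loss causes acrodermatitis enteropathica. It stood at 0.702, 0.669, 0.832 and 1.32 CPM in brain and 169.8, 415, 322 and 307 CPM in uterus. Every uterus library lay far above every brain library, and the log2 fold change was 8.42 ± 0.35 (adjusted p = 4.5e-09). Uterus library 1 held the least and library 2 the most. By its mean per length it was the highest zinc transporter gene of the uterus, at 97.7 ± 32.5 RPKM and 37.6 ± 7.31% of the family, against 0.184 ± 0.0623% in brain.

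Slc39a1 (ENSMUSG00000052310, chromosome 3, 90248172 to 90253612), a zinc importer gene of the plasma membrane in many cell types, followed at 62.8 ± 2.56 RPKM in uterus and was above Slc39a4 in library 1. In CPM it measured 38.9, 34.4, 33.7 and 35.4 in brain and 153, 155, 142 and 145 in uterus. Its uterine libraries were even, and the log2 fold change was 2.06 ± 0.06 (adjusted p = 2.5e-10). Slc39a8 (ENSMUSG00000053897, chromosome 3, 135825279 to 135888572), which encodes ZIP8, an importer of zinc, manganese and cadmium, was uneven instead, at 6.05, 5.54, 6.01 and 5.27 CPM in brain and 44.5, 233, 66.1 and 116 CPM in uterus. All 4 uterus libraries were above brain, the highest holding 5.23 times the lowest. The log2 fold change was 4.33 ± 0.50 (adjusted p = 1.4e-05), or 3.73 without uterus library 2.

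Slc39a14, which encodes ZIP14, an importer of zinc, iron and manganese close to ZIP8, stood at 47.5, 48.5, 50.4 and 48.6 CPM in brain and 86.4, 102, 82.96 and 150.4 CPM in uterus. The organs did not overlap, uterus library 4 was the highest, and the log2 fold change was 1.11 ± 0.17 (adjusted p = 1.2e-04). It did not pass the 2-fold test (adjusted p = 0.193), though it did with library-size scaling at 1.37. Smaller differences toward uterus were seen for Slc39a6 and Slc39a9. Slc39a6, the LIV-1 gene known as oestrogen-regulated in breast cancer cells, measured 56.5, 56.8, 57.7 and 54.8 CPM in brain and 64.8, 70.4, 74.7 and 64.3 CPM in uterus (0.28 ± 0.06, adjusted p = 0.00101). Slc39a9, of the Golgi, measured 74.6, 73.2, 72.5 and 71.4 CPM and 83.98, 88.2, 88.97 and 89 CPM (0.26 ± 0.04, adjusted p = 1.4e-04). Neither overlapped, but both differences were about as large as the shift that library-size scaling gave all genes. That shift is toward uterus, so it raised Slc39a6 to 0.54, and RLE scaling gave 0.24. Over all settings Slc39a9 ranged from 0.22 to 0.52.

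Slc39a13 and Slc39a11 were also called higher in uterus, with 27.1 against 34.4 CPM (0.34 ± 0.08) and 14.4 against 21.01 CPM (0.55 ± 0.08). Slc39a13 encodes an intracellular zinc carrier and is mutated in a form of Ehlers-Danlos syndrome. Slc39a7, of the endoplasmic reticulum, stood at 8.88 CPM in brain and 13.6 CPM in uterus (0.62 ± 0.11, adjusted p = 3.3e-04). The annotation places a transcript named Gm20427 over 80.7% of its exon length on the same strand, and its part in the level was not tested, since the handling of such reads is not given in the sources used here. Slc39a5, a gene of pancreas and intestine, was near the limit of detection in both organs, at 0.405, 0.5997, 0.393 and 0.639 CPM in brain and 0.629, 0.611, 0.507 and 0.466 CPM in uterus. Its levels overlapped (0.12 ± 0.27, adjusted p = 0.687, limma-voom 95% interval -0.52 to 0.79).

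On the brain side of the family stood Slc39a12 (ENSMUSG00000036949, chromosome 2, 14388316 to 14494977), a zinc importer gene known for its expression in brain. It stood at 71.6, 73.04, 71.6 and 73.9 CPM in brain and 0.554, 0.729, 0.964 and 0.326 CPM in uterus, with 105 counts in uterus. The brain libraries were nearly equal, and the log2 fold change was -6.82 ± 0.18 (adjusted p = 1.8e-10). Slc39a10, the partner of Slc39a6 in a complex, was the uptake gene with the highest level per length in brain, at 46.4 ± 0.783 RPKM and 30.01 ± 0.555% of the family. It measured 288, 284, 277 and 282 CPM in brain and 102, 88.1, 96.7 and 93.4 CPM in uterus. The log2 fold change was -1.57 ± 0.05 (adjusted p = 1.1e-09), so the pair of Slc39a6 and Slc39a10 was called in opposite directions.

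Slc39a3 also lay toward brain, at 79.7, 91.2, 88.6 and 94.99 CPM against 29.2, 31.04, 29.4 and 26.6 CPM in uterus (-1.61 ± 0.07, adjusted p = 6.1e-09), with no overlap. Slc39a2, a plasma membrane importer gene known from keratinocytes, stood at 22.2, 22.6, 23.7 and 22.6 CPM in brain and 3.47, 3.25, 4.16 and 13.2 CPM in uterus. Uterus library 4 stood apart from the other uterus libraries and still lay below brain. The log2 fold change was -1.91 ± 0.41 (adjusted p = 0.00139), and -2.63 without that library.

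**Figure D3:**
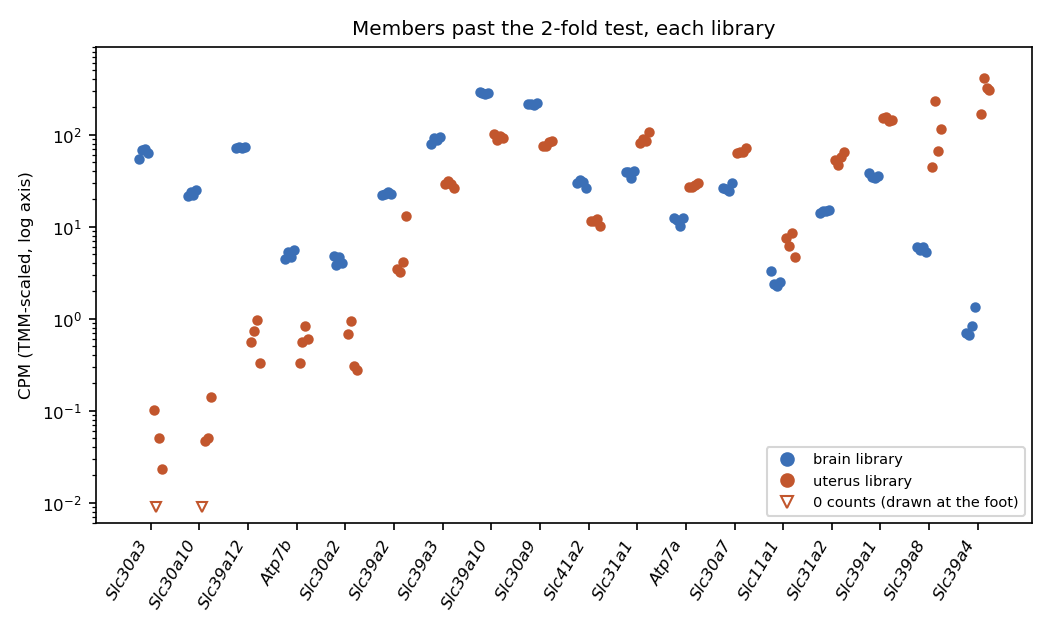
CPM of the 18 members past the 2-fold test in each brain (blue) and uterus (orange) library, on a log axis, ordered by log2 fold change from brain to uterus. Triangles mark libraries with 0 counts, and in none of the 18 genes do the organs overlap.

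The metallothioneins, small cysteine-rich proteins that hold zinc and copper, gave 1 call toward brain and 1 gene not called. Mt1 (ENSMUSG00000031765, chromosome 8, 94179082 to 94180327) stood at 139.7, 139, 129.7 and 131 CPM in brain and 70.1, 73.1, 64.4 and 91.96 CPM in uterus. All uterus libraries were lower, with library 4 the highest of them, and the log2 fold change was -0.85 ± 0.10 (adjusted p = 1.5e-05). Mt2 (ENSMUSG00000031762, chromosome 8, 94172664 to 94173568), its neighbour on the chromosome, stood at 11.8, 12.9, 12.5 and 12.04 CPM in brain and 11.3, 13.9, 11.8 and 17.02 CPM in uterus. These values overlapped (0.13 ± 0.13, adjusted p = 0.354), with a limma-voom 95% interval of -0.16 to 0.40, and Mt2 was called higher in uterus with library-size scaling (0.39, adjusted p = 0.0134) and with upper-quartile scaling (0.39, adjusted p = 0.0146). An antisense gene, Gm45774, covers 73.5% of the exon length of Mt2, and the strand setting of the counting is not given in the sources used here, so its part in the level of Mt2 was not tested. Per length Mt2 made up 16.2 ± 0.721% of the pair in brain and 27.6 ± 1.47% in uterus. The exon length used for Mt1 includes its introns, so the share of Mt2 may be overstated in both organs.

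Metal transcription factor 1 binds metal response elements, with the core letters TGCACNC or TGCGCNC, and is known to induce Mt1, Mt2 and Slc30a1 when zinc rises. The RefSeq windows of these genes (GRCm38.p6, 250 bases before to 50 after each annotated start) are printed because the neighbours Mt1 and Mt2 gave different results here and Slc30a1, of the same regulator, was not called. Capitals mark every match to either core on either strand.
Mt1 (chr8:94178839-94179138, plus strand): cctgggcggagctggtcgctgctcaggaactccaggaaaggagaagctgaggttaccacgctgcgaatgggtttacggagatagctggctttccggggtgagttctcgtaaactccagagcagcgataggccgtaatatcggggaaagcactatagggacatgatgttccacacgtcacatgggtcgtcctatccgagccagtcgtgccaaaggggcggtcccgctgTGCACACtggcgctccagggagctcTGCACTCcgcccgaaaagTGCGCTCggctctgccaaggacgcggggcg
Mt2 (chr8:94172368-94172667, plus strand): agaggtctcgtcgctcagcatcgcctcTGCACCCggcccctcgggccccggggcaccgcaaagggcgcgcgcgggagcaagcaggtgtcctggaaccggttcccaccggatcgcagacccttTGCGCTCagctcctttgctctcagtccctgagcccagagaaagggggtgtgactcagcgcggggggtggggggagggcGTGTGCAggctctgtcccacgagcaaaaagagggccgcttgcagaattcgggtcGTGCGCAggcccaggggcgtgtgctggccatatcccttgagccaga
Slc30a1 (chr1:191906531-191906830, plus strand): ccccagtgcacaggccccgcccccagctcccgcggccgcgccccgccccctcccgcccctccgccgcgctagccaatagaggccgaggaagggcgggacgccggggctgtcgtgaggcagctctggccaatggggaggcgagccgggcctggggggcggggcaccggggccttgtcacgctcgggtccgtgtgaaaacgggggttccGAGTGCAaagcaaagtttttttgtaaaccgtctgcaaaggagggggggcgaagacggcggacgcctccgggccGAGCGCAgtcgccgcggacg
The windows hold 3, 4 and 2 matches. These counts depend on the start that is used, so they do not rank the genes. The Mt2 window ends at 94172667, though the gene itself was placed from 94172664, and Mt1 was searched at no other start. Of all 32851 RefSeq windows of this length, 25.7% hold 1 or more and 7.11% hold 2 or more, where matches that overlap on opposite strands count separately. Of the members, 31 have a window, with 37 windows in all, and 20 of these genes have a match in any window. This counts genes and not windows, so it is not on the scale of the 25.7%. A match is only a run of letters, and binding was not measured. The gene of the factor itself, Mtf1, stood at 43.3 ± 0.877 CPM in brain and 25.4 ± 1.23 CPM in uterus (SD, n = 4), a log2 fold change of -0.77 ± 0.05 (adjusted p = 2.3e-07).

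Of the other zinc genes, 5 of 6 found were tested and 4 called (80%, background 87.0%), 3 toward brain and 1 toward uterus; their median log2 fold change was -0.77. Mt3, the metallothionein of neurons and astrocytes, stood at 164 ± 6.81 CPM in brain and 1.09 ± 0.643 CPM in uterus (-7.22 ± 0.28). Tmem163, which encodes a zinc efflux protein of synaptic vesicles, stood at 32.5 ± 1.86 and 0.610 ± 0.205 CPM (-5.72 ± 0.19). Gpr39, the gene of a zinc-sensing receptor, was the member of this list higher in uterus, at 2.07 ± 0.373 CPM against 0.0587 ± 0.0541 CPM (5.04 ± 0.49). Its brain level rests on 10 counts, against 343 in uterus, a ratio of 34.6 (exact Poisson 95% interval 18.6 to 72.8, counting error only).

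Iron genes were split. Tfrc (ENSMUSG00000022797, chromosome 16, 32608920 to 32632794), the transferrin receptor gene, stood at 191, 167, 157 and 162 CPM in brain and 91.6, 90.7, 68.5 and 83.5 CPM in uterus. The lowest brain library lay well above the highest uterus library, and the log2 fold change was -1.02 ± 0.10 (adjusted p = 3.6e-06), which did not pass the 2-fold test (adjusted p = 0.369). Red cell precursors carry much of this receptor, and the red blood cell markers summed to 78.1, 264, 138 and 251 CPM in brain and 79.4, 49.6, 76.03 and 72.5 CPM in uterus. Brain library 1, with the lowest sum of these markers in brain, had the highest Tfrc, and the part of blood in Tfrc was not tested. Slc11a2, the endosomal iron carrier gene known as DMT1, went the same way, at 62.6, 56.8, 61.3 and 55.7 CPM in brain and 37.9, 42.2, 42.6 and 41.2 CPM in uterus (-0.53 ± 0.06, adjusted p = 1.3e-05), without overlap. With library-size scaling its difference shrank to -0.27 (adjusted p = 0.0030).

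Slc11a1, whose product NRAMP1 pumps metal out of the phagosomes of macrophages, was higher in uterus, at 7.55, 6.21, 8.60 and 4.69 CPM against 3.29, 2.40, 2.29 and 2.53 CPM in brain. The organs did not overlap, though uterus library 4 came close to brain (1.36 ± 0.21, adjusted p = 1.3e-04). The call against 2-fold (adjusted p = 0.0318) ended without brain library 2, 3 or 4 and without uterus library 1 or 3, with adjusted p from 0.0588 to 0.0961. All 7 macrophage and microglia markers were detected in both organs and went different ways. Adgre1 (5.38 to 7.23 CPM in brain, 21.5 to 30.6 CPM in uterus), Cd68 (5.05 to 8.12 and 11.2 to 16.5 CPM), Fcgr1, Aif1 and C1qa were higher in every uterus library than in any brain library, as Slc11a1 was. Csf1r (89.1 to 103 CPM in brain, 32.9 to 42.1 CPM in uterus) and Cd163 were higher in every brain library, and the sum of all 7, at 142 to 183 CPM in brain and 134 to 162 CPM in uterus, was mostly Csf1r in brain. The granulocyte markers summed to 1.92 to 10.6 CPM in brain and 4.77 to 9.84 CPM in uterus. The part of these cells in Slc11a1 was not tested.

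Slc40a1, the gene of the iron exporter ferroportin, was not called. It measured 17.3, 15.1, 13.8 and 12.7 CPM in brain and 9.92, 15.6, 14.8 and 32.5 CPM in uterus, where library 4 held 3.28 times the level of library 1. The log2 fold change was 0.31 ± 0.31 (adjusted p = 0.365, limma-voom 95% interval -0.47 to 0.87), and it turned to -0.12 without uterus library 4.

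Of 30 tested genes for iron binding, storage, reduction and control, 26 were called (86.7%, background 87.0%), 16 toward uterus and 10 toward brain; the median of the list was 0.57. The genes furthest toward uterus were Steap4, a metalloreductase gene, at 92.2 ± 10.8 against 0.846 ± 0.436 CPM (6.79 ± 0.24), and Scara5, a ferritin receptor gene, at 137 ± 20.9 against 1.76 ± 0.188 CPM (6.27 ± 0.14). Tfr2, the iron-sensing receptor gene, was furthest toward brain, at 5.13 ± 0.8996 against 0.233 ± 0.0566 CPM (-4.45 ± 0.23). The ferritin chains differed in direction: the heavy chain gene Fth1 was higher in brain, at 1513 ± 128 against 920.1 ± 90.6 CPM (-0.72 ± 0.09), and the light chain gene Ftl1 in uterus, at 269 ± 7.49 against 64.5 ± 6.60 CPM (2.06 ± 0.07). Ferritin genes have processed pseudogenes, so these levels are uncertain. Also higher in brain were Trf, the transferrin gene (-2.33 ± 0.20), Slc22a17, a lipocalin receptor gene (-3.64 ± 0.09), the haem transporter gene Slc48a1 (-1.71 ± 0.08), Steap2 (-1.58 ± 0.08), the haem oxygenase gene Hmox2 (-0.47 ± 0.05) and Fbxl5 (-0.35 ± 0.06), whose call ended with library-size scaling (-0.097) and upper-quartile scaling (-0.100).

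Copper uptake genes lay toward the uterus. Slc31a1 (ENSMUSG00000066150, chromosome 4, 62360727 to 62391769), which encodes the high-affinity importer CTR1, stood at 39.7, 39.4, 34.2 and 40.3 CPM in brain and 80.7, 89.7, 85.6 and 106 CPM in uterus. Each uterus library was above every brain library, and the log2 fold change was 1.24 ± 0.09 (adjusted p = 3.8e-07). Its neighbour Slc31a2, which encodes the endosomal relative CTR2, stood at 13.98, 14.7, 14.7 and 15.1 CPM in brain and 52.9, 46.5, 57.7 and 64.9 CPM in uterus (1.92 ± 0.10, adjusted p = 2.0e-08). Summed per length the pair reached 16.2 ± 0.689 RPKM in brain and 48.4 ± 5.81 RPKM in uterus (SD, n = 4).

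The copper pumps were called in opposite directions. Atp7a (ENSMUSG00000033792, chromosome X, 106027276 to 106124926), the Menkes disease gene, stood at 12.6, 11.8, 10.2 and 12.5 CPM in brain and 27.1, 27.3, 28.3 and 30 CPM in uterus, without overlap (1.26 ± 0.08, adjusted p = 1.6e-07). Atp7b (ENSMUSG00000006567, chromosome 8, 21992785 to 22060305), the Wilson disease gene, stood at 4.51, 5.33, 4.71 and 5.53 CPM in brain and 0.327, 0.564, 0.837 and 0.606 CPM in uterus (-3.10 ± 0.25, adjusted p = 7.3e-07). In uterus Atp7a was at 3.23 ± 0.152 RPKM and Atp7b at 0.0897 ± 0.0321 RPKM, and in brain they were at 1.35 ± 0.125 and 0.772 ± 0.0752 RPKM.

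All 11 tested genes of copper enzymes of the secretory pathway were called (background 87.0%), 8 toward uterus and 3 toward brain (43.5% and 43.6% of all genes). The median of the list was 1.76, beside 0.012 for all genes. Cp and Heph, both toward uterus, also count in the iron list. Lysyl oxidases cross-link collagen and elastin, and of their genes Loxl2 stood at 164 ± 48.7 CPM in uterus against 1.20 ± 0.368 CPM (7.10 ± 0.28) and Lox at 89.8 ± 24.2 against 1.92 ± 0.421 CPM (5.56 ± 0.24). The amine oxidase gene Aoc3 differed by 5.06 ± 0.14. Against these, Pam, a gene for the amidation of peptide hormones, was higher in brain at 207 ± 6.28 against 127 ± 9.83 CPM (-0.70 ± 0.06), as was the extracellular superoxide dismutase gene Sod3 (-1.72 ± 0.12). The copper chaperones and their targets gave 7 called genes of 8 (87.5%, background 87.0%), with 6 higher in uterus, among them Atox1, which hands copper to the ATPases, at 57.6 ± 3.37 against 24.6 ± 1.74 CPM (1.23 ± 0.07) and Ccs, the chaperone gene of superoxide dismutase (0.87 ± 0.09). The exception was Cox11, a cytochrome oxidase assembly gene (-1.03 ± 0.13).

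Magnesium carriers lay toward brain or did not differ beyond the test. Slc41a1, whose product releases magnesium from cells, stood at 87.6, 98.99, 98.9 and 99.1 CPM in brain and 49.5, 54.1, 48.2 and 51.7 CPM in uterus. The lowest brain library, library 1, was still above all uterus libraries, and the log2 fold change was -0.92 ± 0.06 (adjusted p = 1.3e-07), not past the 2-fold test. Slc41a2 stood at 30.3, 32.3, 30.4 and 26.4 CPM in brain and 11.6, 11.6, 12.2 and 10.2 CPM in uterus (-1.39 ± 0.09, adjusted p = 1.2e-07). It passed the 2-fold test, but not with library-size scaling (-1.13, adjusted p = 0.0616) or upper-quartile scaling (-1.13, adjusted p = 0.0545). Slc41a3, of mitochondria, overlapped between the organs, at 9.80, 8.86, 10.3 and 10.1 CPM in brain and 8.28, 9.64, 7.10 and 12.8 CPM in uterus (-0.04 ± 0.17, adjusted p = 0.817, limma-voom 95% interval -0.43 to 0.30).

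Of 17 other magnesium genes 16 were called (94.1%, background 87.0%), 11 toward brain and 5 toward uterus; the median of the list was -0.50. Cnnm1, of a family of magnesium efflux regulators, was furthest toward brain, at 149 ± 5.96 CPM against 0.0298 ± 0.0223 CPM (-12.13 ± 0.15). Its uterine level rests on 5 counts, against 24853 in brain, a ratio of 4929 (exact Poisson 95% interval 2112 to 15180, counting error only). The SE is smaller than this counting error. Nipal1, of a family of magnesium carriers, reached 3.76 ± 0.981 CPM in uterus against 2 counts in brain, both in library 3, a ratio of 312 (exact Poisson 95% interval 86.1 to 2583, counting error only), and its fitted log2 fold change of 7.97 moved to 10.28 without brain library 3. The channel kinase gene Trpm6 stood at 35.7 ± 14.6 against 2.17 ± 0.472 CPM (4.04 ± 0.37), its relative Trpm7 differed by 0.55 ± 0.06, Magt1, an oligosaccharyltransferase subunit gene linked to magnesium uptake, by 1.87 ± 0.08 and Mmgt2 by 1.24 ± 0.08.

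Within the uterus a few members varied between mice far more than genes of their level. The standard deviation of log2 CPM over the 4 uterus libraries was 1.04 for Slc39a8, beside a median of 0.0855 for the 300 tested genes nearest to it in mean level. It was 0.943 beside 0.231 for Slc39a2, 0.711 beside 0.136 for Slc40a1, 0.545 beside 0.0824 for Slc39a4 and 0.391 beside 0.0756 for Slc39a14. In contrast Slc39a9 and Slc39a1 had 0.0400 and 0.0590, beside 0.0845 and 0.0860. The uneven genes did not share 1 order: Slc39a8 and Slc39a4 were highest in library 2, and Slc39a2, Slc39a14, Slc40a1 and Mt1 in library 4.

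The gland markers, 6 genes all detected in uterus, summed to 223, 1191, 378 and 77.7 CPM in uterus libraries 1 to 4, and to 0.554 to 1.16 CPM in brain. That spread came from 3 of them: Spink1 stood at 95.8, 339, 104 and 4.90 CPM, Prss28 at 21.5, 222, 58.7 and 0.653 CPM and Prss29 at 46.4, 559, 123 and 2.28 CPM. The other 3 were more even and in another order, with Foxa2 at 8.96, 12.3, 13.6 and 8.86 CPM, Lif at 33.6, 39.9, 53.2 and 33.4 CPM and Cxcl15 at 16.6, 18.9, 25.2 and 27.6 CPM. Library 2 was highest for Spink1, Prss28, Prss29, Slc39a8 and Slc39a4, but library 4, lowest for those 3 markers, held 116 CPM of Slc39a8, above libraries 1 and 3. The epithelium markers summed to 612, 620, 665 and 728 CPM in uterus, with library 4 the highest. Of these genes Cdh1, Krt8 and Krt19 were highest in library 4, but Krt18 in library 2, Epcam in library 3 and Cldn4 in library 1. The macrophage markers summed to 156, 162, 139 and 134 CPM, with library 4 the lowest. The part of any of these cells in the uneven members was not tested.

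**Figure D4:**
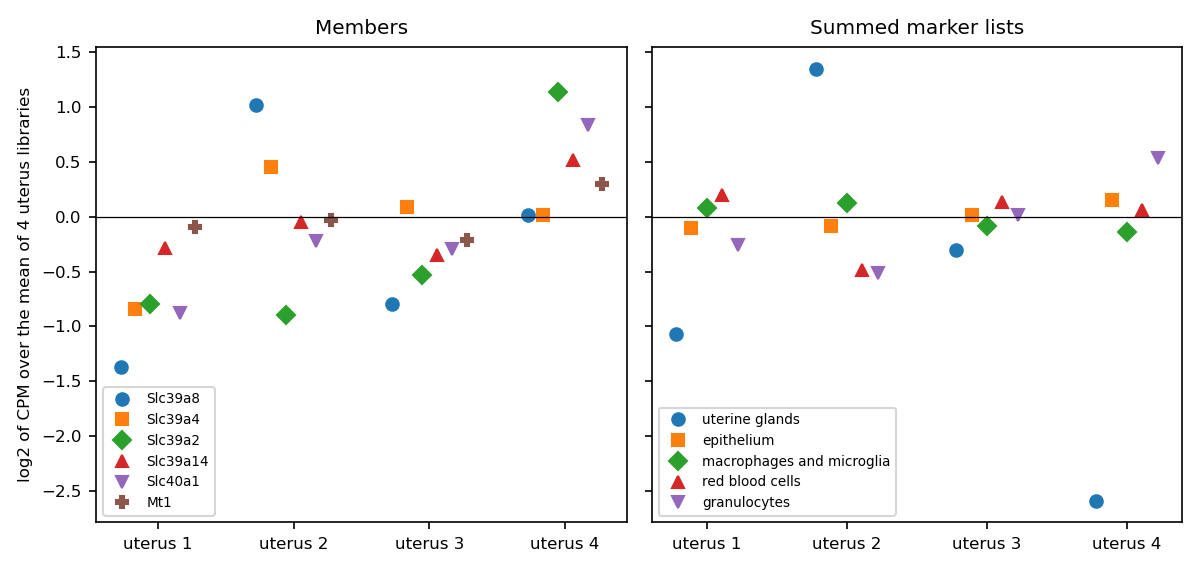
Log2 ratio of the level in each uterus library to the mean of the 4 uterus libraries, for 6 uneven members (left) and for summed markers of 5 cell types (right), so 0 is the mean level. Slc39a8 and the gland sum, which Spink1, Prss28 and Prss29 dominate, are highest in library 2, while Slc39a2 and Slc40a1 are highest in library 4.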

How the data were processed

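RNA was sequenced from brain and uterus, 4 libraries each, with a stranded kit that removes ribosomal RNA, per the labels' protocols. The authors deposited raw counts per gene, not normalized. FastQC, HISAT2 2.0.3, featureCounts and edgeR, and the build GRCm38.p5, are named in the submitters' processing notes. For annotation release, strand setting and reads shared by genes, the sources used here give nothing.

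A filter on low counts (filterByExpr, by organ) left 16074 genes. The organs were compared with edgeR 4.0.16 in R 4.3.3: quasi-likelihood F test, TMM scaling, two-sided, Benjamini-Hochberg adjusted over all tested genes at 0.05, with glmTreat for a change beyond 2-fold. SE is the log2 fold change without shrinkage divided by the square root of F. Coordinates and exon lengths came from GENCODE M21 (GRCm38), and the exon length is that of all annotated exons merged, which for Mt1 includes its introns. Copies at 98% identity over 150 nt were searched with BLAST+ 2.17.0. Beside the overlaps given in the text, other genes share under 10% of the exon length of Slc30a1, Slc30a4, Slc30a10, Slc11a2, Slc39a2, Slc39a9 and Slc39a13. For the ratio of Slc30a8, 3 counts were taken as what a count of 0 allows, for counting error of the 0 only.

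Members and lists were chosen with earlier results of these data known. All members are described; each library's values are given for members not called, at 50 CPM or more, or past 2-fold with at least 1 CPM. Pathway genes named are the 3 largest called changes per list at 1 CPM or more, and called genes against the majority at 10 CPM or more; Ftl1 and Mtf1 were added after their values were seen. Replicates of an organ differed by more than sampling noise (chi-square per degree of freedom 15.4 to 85.4). The procedure was tested on simulated data. The labels give no link between same-numbered mice of the organs, and the model holds no animal term. Other settings tried were library-size, upper-quartile and RLE scaling, 2 other filters, a replicate block, DESeq2 1.42.0, limma-voom (limma 3.58.1), a threshold of 0.01 and leaving out each library, and, chosen after seeing the data, only uterus libraries 1 and 3.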

Additional observations from a re-analysis of the deposited data

Results flagged for a closer look

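In 86 groups of 4 libraries (37 members and 6 family sums in each organ), 6 held a library whose gap to its nearest neighbour took more of the whole range than Dixon's 95% limit for 4 values allows; chance alone flags about 1 group in 20. In uterus, Slc39a2 reached 13.2 CPM in library 4 against 3.25 to 4.16 in the others, and Slc39a7 reached 15.8 CPM in library 4 against 12.8 to 13.1. Slc39a9 was lowest in uterus library 1, at 84.0 CPM against 88.2 to 89.0. In brain, Slc41a1 stood at 87.6 CPM in library 1 against 98.9 to 99.1, Slc31a1 at 34.2 CPM in library 3 against 39.4 to 40.3, and Slc30a5 at 62.7 CPM in library 4 against 56.4 to 57.0. Each of these libraries still lay on its own organ's side of the other organ.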

How the results depend on the processing

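All 31 called members kept their call and direction in each of the 18 alternatives run for them, and the count ranged from 31 to 32. The count past 2-fold was 16 to 19. Without the low-count filter Slc30a8 was also called, toward brain. Members not called changed sign: Slc30a1 to 0.14 and 0.15 and Slc41a3 to 0.21 and 0.21 with upper-quartile and library-size scaling, Slc41a3 to 0.032 and 0.075 without uterus library 1 or 3 (range -0.21 to 0.075 over single libraries left out), Slc40a1 to -0.12 without uterus library 4 (range -0.12 to 0.53), and with only uterus libraries 1 and 3, chosen after seeing the data, Slc40a1 to -0.23 and Mt2 to -0.076; the cause was not tested. With those libraries Slc41a3 was called, at -0.32, Slc39a8 stood at 3.29 and Slc30a3 at -9.64.

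Library-size scaling moved the log2 ratios of summed RPKM of the families: Slc30a from -0.70 to -0.44, Slc39a from 0.72 to 0.98, Slc41a from -0.86 to -0.60, Slc11a from -0.27 to -0.016, Slc31a from 1.58 to 1.84 and the metallothioneins from -0.64 to -0.38, a shift built into that scaling. The deviations of same-numbered libraries of the organs correlated at r from -0.048 to 0.083, beside -0.0836 to 0.1 for different numbers. Organs of 1 mouse need not deviate alike, so these values cannot show whether the numbers mark pairs. The fit with a replicate block called 31 members, 18 of them past 2-fold, as without it. It also called 62 pathway genes, where Ncoa4 and Hfe2 were lost and Lcn2 and Ltf gained. At this depth 3 counts are 0.0628 to 0.0848 CPM, which limits what the uterine levels of Slc30a3, Slc30a10 and Slc30a8 can show.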

Other observations

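Slc30a5, Slc30a6, Slc30a7, Slc39a7, Slc39a9 and Slc39a13, zinc transporter genes whose products are known from the endoplasmic reticulum or Golgi, were each called higher in uterus, as were 43.5% of all genes tested. This group was put together after its values were seen and need not hold every such gene, so it carries no test. Their log2 fold changes were 0.63 ± 0.06, 0.87 ± 0.10, 1.32 ± 0.07, 0.62 ± 0.11, 0.26 ± 0.04 and 0.34 ± 0.08. The levels of Slc30a7 and Slc39a7 are uncertain for the overlapping transcripts named above. Slc30a4, which was left out of this group, was called higher in brain (-0.45 ± 0.06).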
